A study of Homo sapiens with 10 samples.

Results

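A group of 9 negative regulators of ERK signalling was followed in human glioblastoma cells treated with a cyclic AMP analogue. The genes were taken by symbol from the deposited expression table: 5 dual-specificity MAP kinase phosphatases (DUSP1, DUSP4, DUSP5, DUSP6 and DUSP10), 2 Sprouty genes (SPRY2 and SPRY4) and 2 SPRED genes (SPRED1 and SPRED2). All 9 were found among the 20379 genes of the table. All 9 also passed the filter of a mean of at least 1 FPKM over the libraries, which left 12352 genes for the tests. FPKM, a level in fragments scaled to transcript length and library size, was inferred as the unit from the values.

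The study treated 2 established glioblastoma lines, DBTRG-05MG and U87, with dibutyryl cAMP at 1 mM, a form of cyclic AMP that enters cells and activates protein kinase A. RNA was taken after 0, 6, 12, 24 and 48 h. Each of the 10 groups is 1 line at 1 time and holds 1 library, so there were no replicates, and no untreated cultures were paired with the later times. The labels gave 1 mM and times up to 48 h, while the description of the series gave a different dose unit and a longer exposure, and the labels were followed here. Both lines are cultures of tumour cells and neither carried an engineered allele in the labels. Of 8 glial and glioma markers, GFAP, AQP4 and S100B stayed at or below 0.508 FPKM and OLIG2 at or below 2.01 FPKM, while VIM, CD44 and NES were present in both lines and SOX2 was listed at 0 in every U87 library against 23.0 to 36.6 FPKM in DBTRG-05MG. The immune, endothelial and epithelial markers PTPRC, CD14, CD3E, PECAM1, CDH5, EPCAM and CDH1 did not exceed 0.632 FPKM in any library. Of the neuronal markers, RBFOX3 reached 0.191 FPKM and SYT1 reached 4.49 FPKM. Relative depth ran from 100 to 116.8% of the first library.

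ERK is the last kinase of the cascade that runs from growth factor receptors through RAS, RAF and MEK, and it is switched off by removal of the phosphates that MEK added. Dual-specificity phosphatases remove them directly, whereas Sprouty and SPRED proteins act higher up, on the passage of the signal from the receptor to RAS and RAF. Several of these brakes are themselves transcribed in response to ERK, and DUSP1 is also a textbook target of CREB, the transcription factor that protein kinase A phosphorylates.

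The promoter of DUSP1 is shown because it alone among the members with a window held the full cAMP response element, TGACGTCA, the palindrome that CREB binds. The windows were 300 bases around each RefSeq start on GRCh38.p14, 7 of 9 members had 1 or more, and both strands were searched. DUSP4 and DUSP5 had no window, so their promoters were not searched. The stretch lies on the minus strand at chr5:172771277-172771392, from base -197 to base -82 counted from the start, and the capitals mark every copy of the element and of its core TGACG, with CGTCA as the core read on the other strand.
DUSP1: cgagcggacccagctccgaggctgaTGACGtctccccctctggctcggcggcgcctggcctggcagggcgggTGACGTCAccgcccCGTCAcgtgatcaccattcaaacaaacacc
The full element lay at bases -125 to -118. It was found in 1.85% of all 35116 windows, and in 1 or more windows of 2.25% of all 27305 genes. The core alone, which the full element contains on both strands, was found in 5 of the 7 members with a window. They were DUSP1, DUSP10, SPRED2, SPRY2 and SPRY4. The core was found in 28.4% of all genes (24.6% of all windows). The copies of SPRY2 (chr13:80341287-80341341) and SPRY4 (chr5:142324286-142324340), also on the minus strand, are given for comparison because, unlike those of DUSP10 and SPRED2, they lay wholly before the start.
SPRY2: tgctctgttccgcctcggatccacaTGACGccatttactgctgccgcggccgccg
SPRY4: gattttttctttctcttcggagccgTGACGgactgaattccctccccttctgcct
The core lay at bases -190 to -186 in SPRY2 and at bases -68 to -64 in SPRY4. No member window held the CArG box, present in 1.29% of windows, or the ETS-type sequence CCGGAAG, present in 10.3%. These matches describe letters in the windows, not sites in use.

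DUSP1, a nuclear phosphatase of ERK, p38 and JNK, was the only member that was higher than at 0 h at every later time in both lines. In DBTRG-05MG its level was 12.6 FPKM at 0 h, then 133, 118, 94.9 and 82.1 FPKM at 6, 12, 24 and 48 h. In U87 it was 45.5 FPKM at 0 h, then 117, 201, 141 and 138 FPKM. The untreated library was the lowest of its line in both cases, and the treated libraries of each line did not overlap with it. The highest level came at 6 h in DBTRG-05MG and at 12 h in U87. In bulk RNA, a change in the share of cells that express a gene and a change in the RNA per cell cannot be told apart.

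The largest ratio to 0 h was 10.6 in DBTRG-05MG, at 6 h, and 4.42 in U87, at 12 h. On the log2(FPKM + 1) scale the DUSP1 difference at 6 h in DBTRG-05MG ranked 3rd highest of 12352 genes, and the difference at 12 h in U87 ranked 44th. Sizes counted as 2-fold are on this scale throughout. DUSP1 was the 1 member of 9 at least 2-fold above 0 h in both lines at each later time, against 0.316, 0.372, 0.235 and 0.567% of all tested genes at 6, 12, 24 and 48 h. An order above 0 h at all 4 later times in both lines was found for 2.55% of tested genes.

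Averaged over the lines, the DUSP1 differences from 0 h in the limma fit were 2.32, 2.62, 2.22 and 2.09 log2 units at 6, 12, 24 and 48 h, each with an SE of 0.38. None passed the threshold of 0.05: the limma adjusted p-values were 0.206, 0.132, 0.354 and 0.136. Their unadjusted p-values were nevertheless among the lowest in the table, at ranks 11, 6, 9 and 33 of 12352. With 1 library per line and time, the spread in this fit is the disagreement between the lines after their mean levels are removed, and the larger difference in DBTRG-05MG counts as spread. DUSP1 overlaps an antisense gene, and since no strand-marking step is described for the libraries, reads from such partners cannot be told apart.

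Genes known to respond to handling of cultures were read beside DUSP1, since it is itself an immediate early gene. Of 9 such genes, 8 were tested. In DBTRG-05MG, 5, 3, 3 and 3 were at least 2-fold higher at 6, 12, 24 and 48 h. The shares of all tested genes there were 1.17, 2.47, 3.18 and 4.57%. In U87 the counts were 0, 2, 1 and 1, against 2.73, 2.61, 2.15 and 2.14%. At least 2-fold lower were 1 at 12 h in DBTRG-05MG (1.61% of tested genes) and 1 at 48 h in U87 (4.32%). JUNB and ATF3, transcription factors of this list, were above 0 h at all 4 later times in both lines, as DUSP1 was. Others went the other way: DNAJB1 was below 0 h at all 4 later times in both lines, and JUN was in DBTRG-05MG. IER2 was above throughout in DBTRG-05MG and below throughout in U87. In U87 at 12 h, where DUSP1 was highest, ATF3 was at 14.2 FPKM against 3.41 FPKM at 0 h, FOS at 3.32 against 0.915 FPKM and JUNB at 80.9 against 47.0 FPKM. The summed level of the list in DBTRG-05MG was 357 FPKM at 0 h and 362 to 464 FPKM later, highest at 6 h. In U87 the sum was 356 FPKM at 0 h and 324 to 373 FPKM later. DNAJB1 alone was at 182 FPKM at 0 h in DBTRG-05MG and at 139 FPKM in U87. EGR1, another such factor, was at 25.4 FPKM at 0 h and 70.2 FPKM at 6 h in DBTRG-05MG, and at 8.47 and 9.91 FPKM in U87, where it was highest at 24 h, at 32.5 FPKM. The part of handling in the DUSP1 values was not tested. Genes known to be induced by cyclic AMP numbered 10. At least 2-fold higher in DBTRG-05MG were 9, 8, 8 and 5 at 6, 12, 24 and 48 h. In U87 the counts were 6, 3, 3 and 1. The matching shares of all tested genes are those given above for the handling genes. Of the 10 genes, 0 passed at any time in the limma fit.

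**Figure D1:**
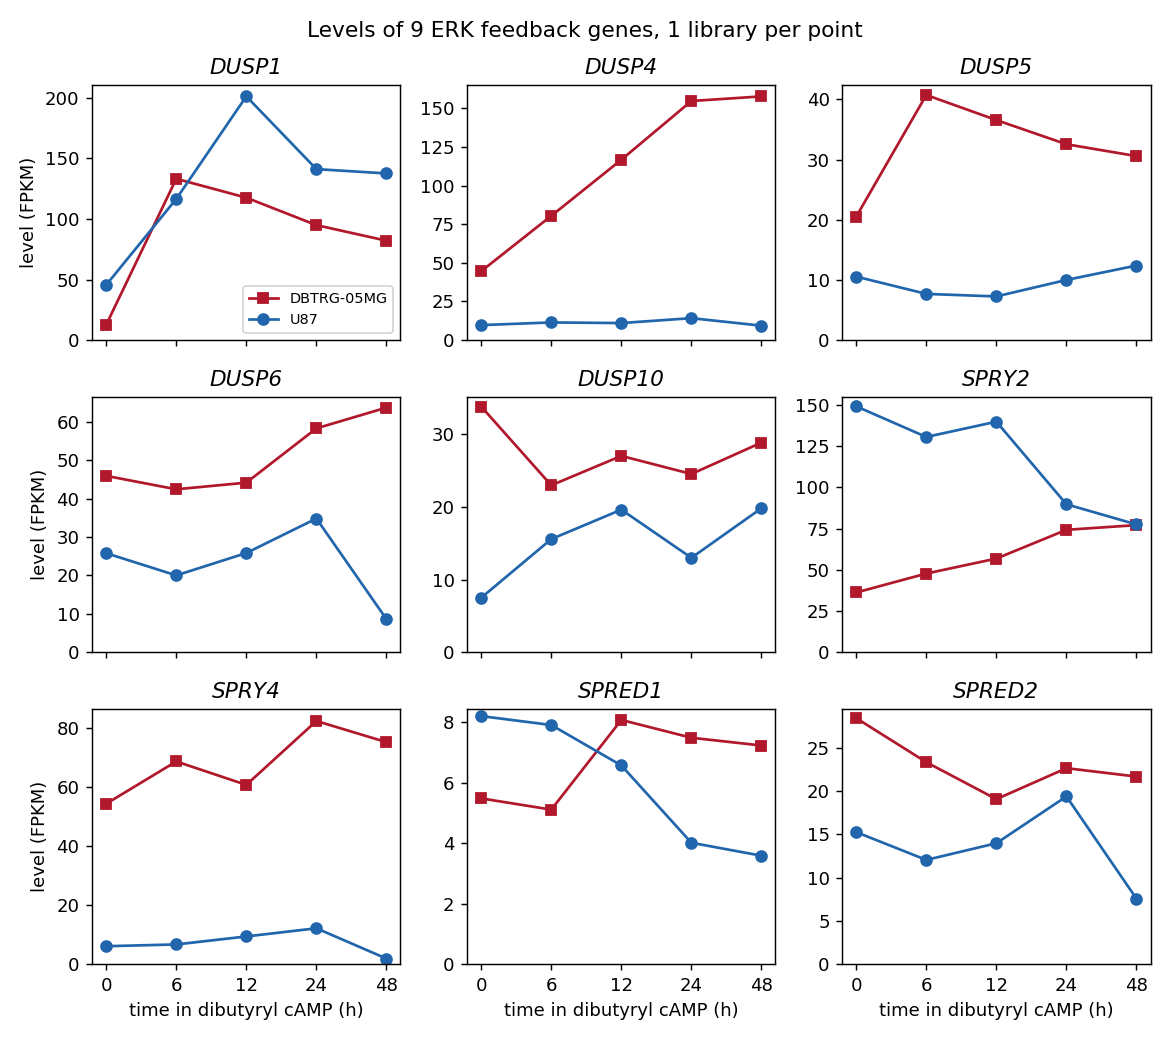
Levels of the 9 genes in FPKM (vertical axes, each from 0) against time in dibutyryl cAMP in hours, evenly spaced, for DBTRG-05MG (red squares) and U87 (blue circles), with 1 library per point and no error bars. DUSP1 stands above its 0 h level at every later time in both lines, DUSP4 runs from 44.6 to 158 FPKM in DBTRG-05MG, and DUSP6, SPRY4 and SPRED2 are lowest in U87 at 48 h.

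DUSP4, a nuclear phosphatase that is closely related to DUSP1, was higher at each successive time in DBTRG-05MG. Its levels there were 44.6, 80.4, 117, 155 and 158 FPKM at 0, 6, 12, 24 and 48 h. In U87 they were 9.67, 11.4, 11.0, 14.2 and 9.30 FPKM, a range of 1.52-fold. The DBTRG-05MG series covered 3.54-fold, and its lowest library lay above every U87 library. Over both lines, the limma difference from 0 h was 1.14 log2 units at 24 h (SE 0.38, unadjusted p = 0.0154, adjusted p = 1.00) and 0.87 at 48 h (SE 0.38, unadjusted p = 0.0480, adjusted p = 0.402). These values depended on single libraries. At 24 h the difference was 0.52 without the DBTRG-05MG 0 h library and 1.76 without that of U87. At 48 h it was 0.26 without DBTRG-05MG 0 h, 0.33 without DBTRG-05MG 48 h, 1.49 without U87 0 h and 1.41 without U87 48 h.

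DUSP5, a nuclear phosphatase specific for ERK, was at 20.5 FPKM at 0 h in DBTRG-05MG and at 40.7, 36.6, 32.5 and 30.6 FPKM afterwards. All 4 treated libraries lay above the untreated one, with the highest at 6 h. In U87 the levels were 10.5, 7.67, 7.25, 9.99 and 12.4 FPKM, with the lowest at 12 h and the highest at 48 h. The 6 h ratio in DBTRG-05MG, 1.99, and the 6 h ratio in U87, 0.727, lay on opposite sides of no change.

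DUSP6, the cytoplasmic phosphatase of ERK and a common readout of ERK activity, was at 46.0, 42.5, 44.2, 58.3 and 63.8 FPKM in DBTRG-05MG. The first 3 libraries there lay close together, and the 24 h and 48 h libraries lay above them. In U87 it was at 25.8, 20.0, 25.8, 34.8 and 8.61 FPKM, so that the highest library, at 24 h, was followed by the lowest, at 48 h. Among the treated libraries, neither line held a DUSP6 level 2-fold above that at 0 h.

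DUSP10, a phosphatase with a preference for p38 and JNK over ERK, stood on opposite sides of its 0 h level in the 2 lines. In DBTRG-05MG its level was 33.8 FPKM at 0 h and 23.0, 27.0, 24.5 and 28.9 FPKM at the later times. In U87 it was 7.49 FPKM at 0 h and 15.6, 19.6, 13.0 and 19.8 FPKM later. Every treated DBTRG-05MG library lay below its untreated library and every treated U87 library above its own, an order found for 1.73% of tested genes. The trend test of the difference between the lines gave -0.27 log2 units per time step (DBTRG-05MG minus U87, SE 0.14, limma adjusted p = 0.421), which did not pass. It was -0.078 without the U87 0 h library and -0.15 without that of DBTRG-05MG.

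SPRY2, a Sprouty inhibitor of receptor tyrosine kinase signalling, showed the reverse order. It was at 36.2, 47.7, 56.8, 74.2 and 77.1 FPKM in DBTRG-05MG, higher at each successive time. In U87 it was at 149, 131, 139.9, 89.8 and 77.5 FPKM, with the 24 h and 48 h libraries below the first 3. The lines were 4.12-fold apart at 0 h and nearly level at 48 h. An order above 0 h at all later times in DBTRG-05MG and below it in U87 was found for 3.24% of tested genes.

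The SPRY2 trends differed between the lines by 0.52 log2 units per time step (SE 0.09), the 13th lowest p of 12352 genes, with a limma adjusted p of 0.106 that missed the threshold. None of the 9 members passed this trend test, against 0.0162% of tested genes (2 genes). At an unadjusted p under 0.05 there were 3 members, SPRY2, SPRED1 and DUSP4, against 13.4% of tested genes. The differences for SPRED1 (0.40, SE 0.10) and DUSP4 (0.43, SE 0.11) had limma adjusted p-values of 0.225 and 0.260.

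SPRY4, the second Sprouty gene of the group, was at 54.4, 68.7, 60.8, 82.4 and 75.2 FPKM in DBTRG-05MG, with all treated libraries above the untreated one. In U87 it was at 6.11, 6.71, 9.41, 12.2 and 1.91 FPKM. The U87 series was higher at each time up to 24 h and was then lowest at 48 h. SPRY4 overlaps SPRY4-AS1 and 2 small RNA genes on the opposite strand, whose reads could not be told apart without strand.

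SPRED1, which recruits the RAS inhibitor neurofibromin to the membrane, was the least abundant member by mean level in both lines. It was at 5.48, 5.11, 8.08, 7.49 and 7.23 FPKM in DBTRG-05MG and at 8.21, 7.91, 6.57, 4.02 and 3.59 FPKM in U87. The U87 levels were lower at each successive time, and those of DBTRG-05MG were higher from 12 h on. SPRED2, its close relative, was at 28.4, 23.3, 19.1, 22.7 and 21.7 FPKM in DBTRG-05MG and at 15.3, 12.1, 14.0, 19.4 and 7.57 FPKM in U87. The SPRED2 libraries of DBTRG-05MG were highest at 0 h, and those of U87 were lowest at 48 h. The mean difference of SPRED2 at 48 h was -0.65 log2 units (SE 0.29, limma unadjusted p = 0.0541, adjusted p = 0.416). It was -0.25 without the U87 48 h library and -1.05 without that of DBTRG-05MG.

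**Figure D2:**
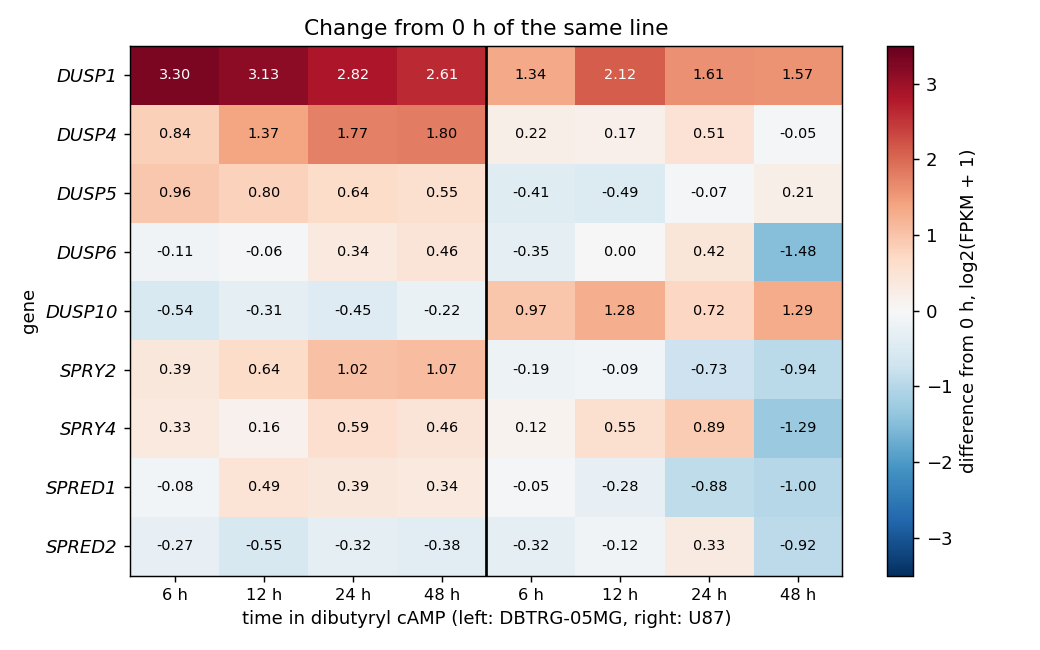
Difference of each member from 0 h of the same line on the log2(FPKM + 1) scale, as colour and as a printed value, with the 9 genes as rows and the later times as columns, DBTRG-05MG on the left and U87 on the right, 1 library per cell. DUSP1 is the only row above 0 throughout, SPRY2 and DUSP10 take opposite signs in the 2 lines, and the U87 48 h column holds the lowest values, down to -1.48 for DUSP6.

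Counted by size, members at least 2-fold above 0 h in DBTRG-05MG numbered 1, 2, 3 and 3 at 6, 12, 24 and 48 h, against 1.17, 2.47, 3.18 and 4.57% of tested genes. They were DUSP1 throughout, with DUSP4 from 12 h and SPRY2 from 24 h. With median centring the count at 24 h was 2. In U87 the counts were 1, 2, 1 and 2, against 2.73, 2.61, 2.15 and 2.14%, and the genes were DUSP1 throughout and DUSP10 at 12 and 48 h. Members at least 2-fold lower appeared only in U87 at 48 h, where DUSP6, SPRY4 and SPRED1 made 3 of 9, against 4.32% of tested genes. That count was 2 with median centring or upper quartile scaling and 4 with a pseudocount of 0.1. The count was 0 at 6, 12 and 24 h in U87, against 2.43, 2.67 and 4.5%, and 0 throughout in DBTRG-05MG, against 0.81, 1.61, 1.6 and 5.16%. In U87 at 48 h, SPRY2 and SPRED2 were just short of that size, at -0.94 and -0.92 log2 units. DUSP10 at 6 h in U87 (0.97) and DUSP5 at 6 h in DBTRG-05MG (0.96) were just short of 2-fold higher. In FPKM alone, the ratios to 0 h were 0.496 for SPRED2 and 2.08 for DUSP10. By order alone, 5 members lay above 0 h at all 4 later times in DBTRG-05MG (18.8% of tested genes) and 2, DUSP10 and SPRED2, lay below it (22.7%). In U87, 2 lay above, DUSP1 and DUSP10 (9.35%), and 2 below, SPRY2 and SPRED1 (24.6%). The median of all tested genes was itself -0.15 log2 units at 24 h and at 48 h in U87, so these U87 differences are to be read against it.

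In the limma fit over both lines, 0 of 9 members passed at 6, 12, 24 or 48 h. The shares of tested genes that passed were 0.0081% at each of 6, 12 and 24 h, 1 gene each, and 0% at 48 h. At an unadjusted p under 0.05 the members were DUSP1 alone at 6 and 12 h, and DUSP1 with DUSP4 at 24 and 48 h. The matching shares of tested genes were 5.31, 4.47, 3.51 and 12.2%. The 4 comparisons share the 0 h libraries.

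The U87 library at 48 h stood apart for several members, and the step from 24 to 48 h was examined for that reason, after its values had been seen and without a test. SPRY4 was lower by 2.18 log2 units across that step, the 18th lowest difference of 12352 genes. DUSP6 was at -1.90, the 38th lowest, and SPRED2 at -1.25. These 3 of 9 members were at least 2-fold lower, against 4.67% of tested genes. DUSP1 differed by -0.04 and SPRY2 by -0.21, while DUSP5 and DUSP10 were at 0.28 and 0.57. In DBTRG-05MG no member was 2-fold lower across the same step, against 1.97% of tested genes, and the differences ran from -0.21 (DUSP1) to 0.23 (DUSP10).

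Genes transcribed in response to ERK were read from a list of 18, of which 17 were tested. It overlaps the lists used above: FOS, EGR1 and IER2 are also handling genes, and FOSB is also among the genes induced by cyclic AMP. Across the same U87 step 5 of 17 were at least 2-fold lower, namely FOSL1 (-2.44 log2 units), EGR1 (-2.44), HBEGF (-1.61), FOS (-1.32) and EPHA2 (-1.12), and 0 of 17 were in DBTRG-05MG. The U87 48 h library was the lowest of its line for 6 of 9 members, against 30.5% of tested genes. The U87 24 h library was the highest for 4 members, DUSP4, DUSP6, SPRY4 and SPRED2, against 16.1%. Division genes also differed across this step. Their summed level was 302 FPKM at 24 h and 185 FPKM at 48 h in U87. There, 6 of 8 division genes were lower at 48 h than at 24 h, and TOP2A and CCNB1 were higher. In DBTRG-05MG, where no member was 2-fold lower, the sum was 308 and 95.5 FPKM, and all 8 division genes were lower. The part of division, or of this single library, in the member values was not tested.

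**Figure D3:**
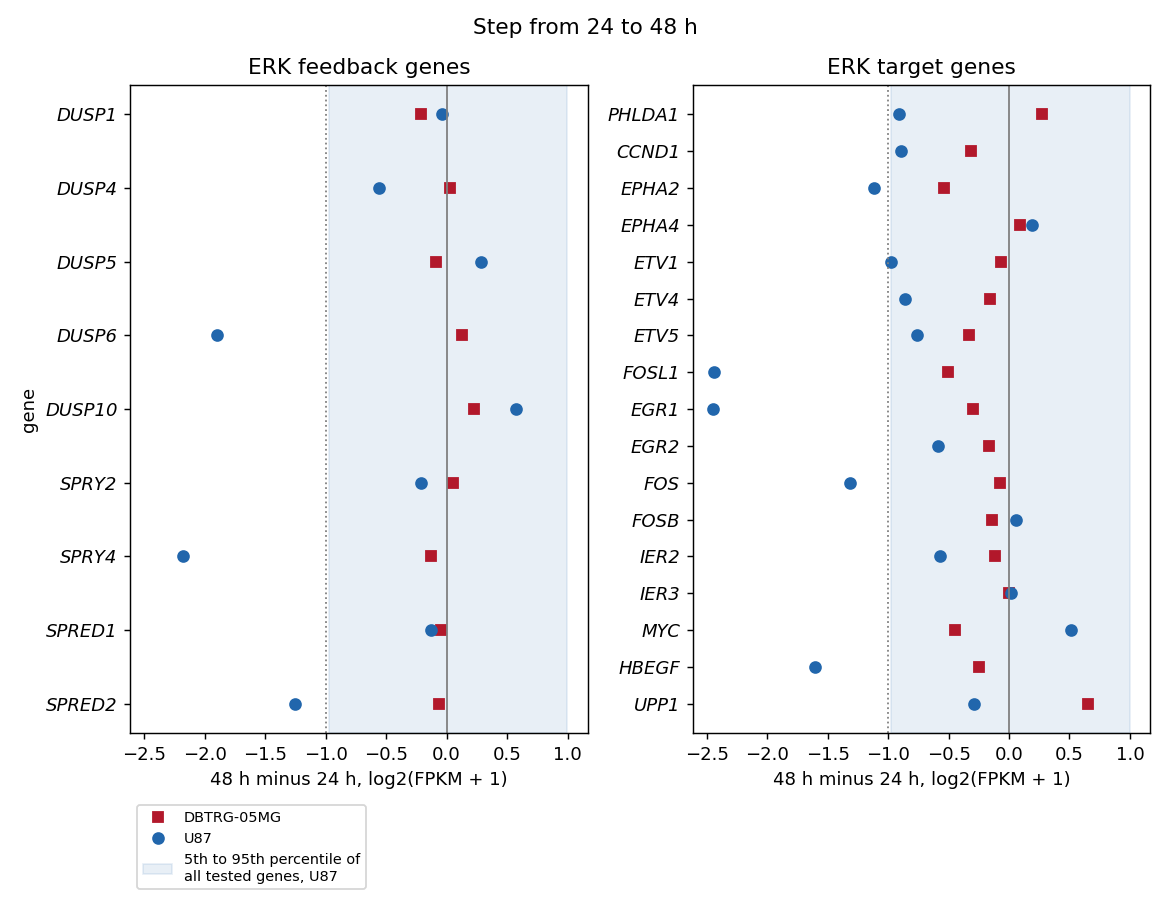
Difference between 48 and 24 h on the log2(FPKM + 1) scale for the 9 members (left) and 17 ERK target genes (right), with U87 as blue circles and DBTRG-05MG as red squares, 1 library per time. The shaded band spans percentile 5 to percentile 95 of all tested genes in U87, -0.97 to 1.00, and the dotted line marks a 2-fold lower level. SPRY4, DUSP6 and SPRED2 lie left of that line in U87, as do 5 ERK targets, and no gene shown does so in DBTRG-05MG.

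Most members sat at different levels in the 2 lines. In the limma fit, 8 of 9 members passed for a level difference, 6 higher in DBTRG-05MG and 2 higher in U87. Of all tested genes 55% passed, 35.2% higher in DBTRG-05MG and 19.7% higher in U87. SPRY4 was higher in DBTRG-05MG by 3.22 log2 units (SE 0.29, limma adjusted p = 1.48e-05) and DUSP4 by 3.08 (SE 0.24, limma adjusted p = 6.50e-06). DUSP5 (1.64), DUSP6 (1.22), DUSP10 (0.88) and SPRED2 (0.76) were also higher in DBTRG-05MG, with limma adjusted p-values from 1.95e-04 to 0.0108. SPRY2 was higher in U87, at -1.0 (SE 0.28, limma adjusted p = 0.0131), as was DUSP1, at -0.73 (SE 0.24, limma adjusted p = 0.0287). SPRED1 differed by 0.16 (SE 0.24, limma adjusted p = 0.590). The libraries of 1 line share its cells. Changes over time that the lines share are removed in this fit. These p-values therefore rest on how far the difference between the lines varied over the 5 times.

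Scaling bore on this comparison. With each library centred on its median, DUSP10 (0.61, limma adjusted p = 0.0635) and SPRED2 (0.49, limma adjusted p = 0.0584) no longer passed, which left 6 of 9 members. The genes that passed were 4350 higher and 2439 lower in DBTRG-05MG in the values as deposited, and 3166 higher and 3784 lower after that centring. The DUSP1 difference did not pass without the filter on low values (limma adjusted p = 0.0596). It also failed without either library of 0, 12 or 48 h, with limma adjusted p-values of 0.0680 to 0.0877, and was -0.47 without either 0 h library. DUSP4, DUSP5, DUSP6, SPRY2 and SPRY4 passed under every alternative run.

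Every DBTRG-05MG library lay above every U87 library for DUSP4, DUSP5, DUSP6, DUSP10 and SPRY4, against 27.1% of tested genes. After median centring this held for DUSP4, DUSP5 and SPRY4, and after upper quartile scaling for these and DUSP6. The reverse order held for SPRY2 alone, against 13.8% of tested genes, and under both scalings. In the values as deposited its margin was small: at 48 h SPRY2 was at 77.5 FPKM in U87 and 77.1 FPKM in DBTRG-05MG.

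**Figure D4:**
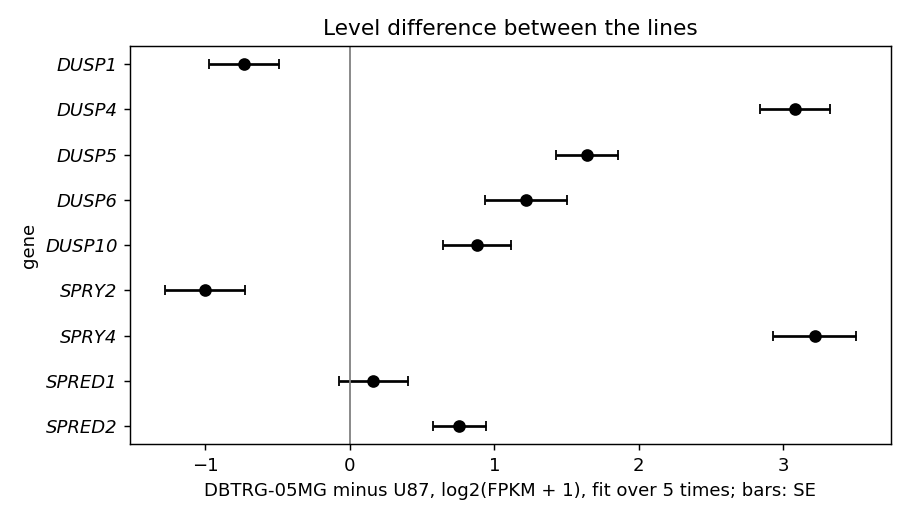
Level difference between the lines for the 9 genes, DBTRG-05MG minus U87 on the log2(FPKM + 1) scale, from the limma fit over 10 libraries, with bars of 1 SE on each side. SPRY4 and DUSP4 lie above 3, SPRY2 and DUSP1 lie below 0, and the SPRED1 bar crosses 0.

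The order of the members also differed between the lines. By mean level over the 5 times in DBTRG-05MG, DUSP4 came first at 111 ± 48.7 FPKM (SD over the 5 times), followed by DUSP1 at 88.1 ± 46.6, SPRY4 at 68.3 ± 11.2, SPRY2 at 58.4 ± 17.4 and DUSP6 at 50.9 ± 9.51 FPKM. Neighbours among these 5 differed by less than the larger of their SDs. DUSP5 (32.2 ± 7.60 FPKM) and DUSP10 (27.5 ± 4.22 FPKM) did likewise. SPRED2 (23.0 ± 3.42 FPKM) lay below DUSP10 by slightly more than the larger SD, and SPRED1 (6.68 ± 1.30 FPKM) came last. In U87, DUSP1 at 128 ± 56.1 FPKM and SPRY2 at 117 ± 31.8 FPKM stood apart from all others, the next being DUSP6 at 23.0 ± 9.65 FPKM. From DUSP6 down to SPRY4 (7.27 ± 3.84 FPKM) and SPRED1 (6.06 ± 2.16), no neighbours in the order differed by more than the larger of their SDs. These spreads hold differences over time as well as any error.

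Summed over the 9 members, the level was 282, 465, 487, 552 and 544 FPKM in DBTRG-05MG and 278, 328, 435, 339 and 278 FPKM in U87. The sums were nearly equal at 0 h, and at 48 h the U87 sum was back near its start. Its makeup was not: DUSP1 gave 16.4% of the U87 sum at 0 h and 49.4% at 48 h. In DBTRG-05MG it gave 4.46% at 0 h, 28.7% at 6 h and 15.1% at 48 h. The Sprouty sum was 90.6 FPKM at 0 h and 152 FPKM at 48 h in DBTRG-05MG, and 155 and 79.4 FPKM in U87.

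**Figure D5:**
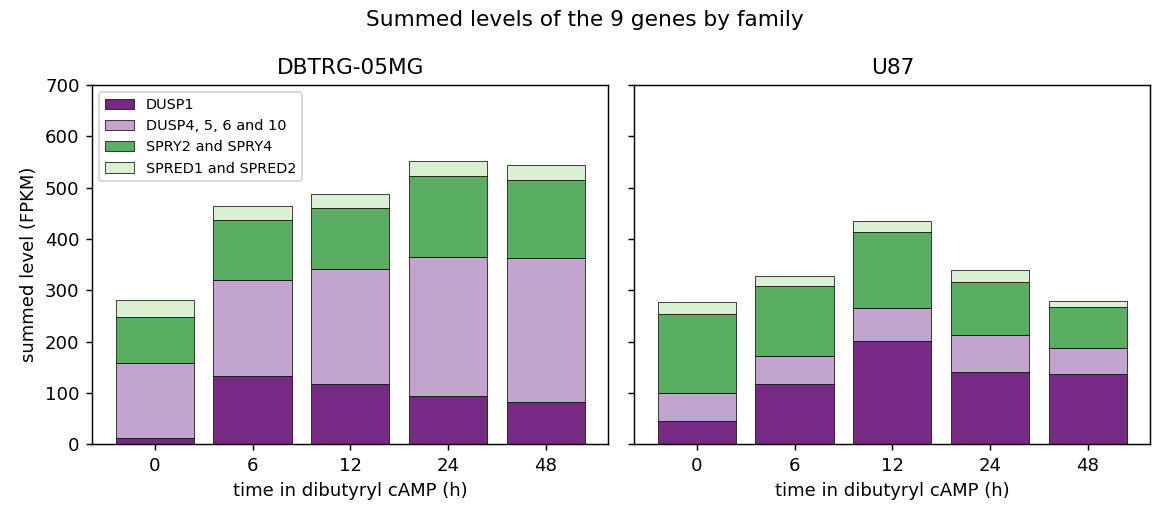
Summed level of the 9 members in FPKM (vertical axis from 0) by time in dibutyryl cAMP, stacked by family, for DBTRG-05MG (left) and U87 (right), 1 library per bar. The bars start at 282 and 278 FPKM, DBTRG-05MG ends at 544 FPKM, and U87 ends at 278 FPKM with DUSP1 as 49.4% of the bar.

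Other genes of the pathway were read from lists of relatives and partners. Of the remaining MAP kinase phosphatases, DUSP7, DUSP8 and DUSP16 were tested and DUSP2 and DUSP9 were too low, and 0 of 3 passed at any time. DUSP7, a cytoplasmic ERK phosphatase, was at 21.3 FPKM at 0 h and 42.9 FPKM at 6 h in DBTRG-05MG and at 24.9 and 24.7 FPKM in U87. Of the remaining Sprouty and SPRED genes, SPRY1 and SPRED3 were tested, and neither passed at any time. SPRY1 was at 14.6 FPKM at 0 h and 4.98 FPKM at 6 h in DBTRG-05MG, opposite to SPRY2 and SPRY4 there. In U87 SPRY1 was low throughout, at 0.162, 1.36, 1.45, 0.692 and 0.160 FPKM, and was higher at 6 h than at 0 h. SPRED3 was at 2.82, 2.03, 5.40, 10.6 and 2.76 FPKM in U87, with its highest library at 24 h, as for SPRY4.

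The kinases and adaptors of the cascade held few differences of 2-fold size. Of 21 genes from the RAS proteins to ERK and its RSK kinases, 0 passed at any time in the limma fit, 0 were 2-fold higher in either line, and 1 was 2-fold lower at 6 h in U87, the RSK kinase RPS6KA1 (8.41 to 1.85 FPKM). At 24 h in U87 another, RPS6KA3, was also 2-fold lower (23.5 to 9.92 FPKM). Of 13 other brakes on RAS and receptor signalling, among them NF1, the gene of neurofibromin, 0 passed. Of these 13, 0 lay above 0 h at all 4 later times in DBTRG-05MG and 1 in U87, against 18.8 and 9.35% of tested genes. Below it throughout were 5 in DBTRG-05MG and 8 in U87, ERRFI1 among the 8, against 22.7 and 24.6%. ERRFI1, an inhibitor of the EGF receptor, was at 75.5, 53.15 and 146 FPKM at 0, 6 and 24 h in DBTRG-05MG. In U87 it was at 32.4, 23.8 and 30.7 FPKM. RASAL2, with the largest mean change, was at 4.79 and 1.47 FPKM at 0 and 48 h in DBTRG-05MG and 4.13 and 2.07 in U87. Of 9 tested p38 and JNK pathway genes, 0 passed and 0 were 2-fold from 0 h in either line. The 17 ERK targets were divided at 6 h: 5 were 2-fold higher and 0 lower in DBTRG-05MG, against 1.17 and 0.81% of tested genes. In U87, 2 were higher and 2 lower, against 2.73 and 2.43%. HBEGF, a ligand of the EGF receptor, was the ERK target 2-fold higher in both lines at 6 h, at 6.74 and 50.5 FPKM in DBTRG-05MG and 10.7 and 24.0 FPKM in U87.

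The genes whose values most resembled each member were found by Pearson correlation over the 10 libraries after each line's own mean was removed, among 3603 genes of sufficient level and variation. The level was a mean over both lines, so a gene could qualify through 1 line. These are descriptions of libraries that share cells and treatment. DUSP1 was closest to PDE4B (r = 0.925), a phosphodiesterase that breaks down cyclic AMP, and to FAM167A and PTGES. PDE4B was at 2.05, 11.6, 16.7, 16.6 and 11.7 FPKM in DBTRG-05MG and at 7.52, 36.3, 34.2, 22.1 and 26.0 FPKM in U87. DUSP4 was closest to STC1 (r = 0.961), a secreted hormone gene, DUSP5 to PIK3CD (r = 0.918), DUSP10 to EML1 (r = 0.950), SPRY2 to EXOSC6 (r = 0.972) and SPRED1 to TMED5 (r = 0.952).

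DUSP6 was closest to CD97 (r = 0.969), SPRY4 to WNT7B (r = 0.965) and SPRED2 to N4BP1 (r = 0.970). Leaving out the U87 48 h library gave 0.865, 0.865 and 0.938. WNT7B was at 0.490 to 1.19 FPKM in DBTRG-05MG and at 25.7 to 81.4 FPKM in U87. EML1, named above for DUSP10, was at 2.00 to 2.42 FPKM in DBTRG-05MG and at 41.7 to 94.1 FPKM in U87. Among the members themselves, the highest values were 0.94 for DUSP6 with SPRY4, 0.836 for DUSP6 with SPRED2, 0.835 for SPRY2 with SPRED1 and 0.783 for SPRY4 with SPRED2. Without the U87 48 h library these became 0.75, 0.483, 0.771 and 0.308, so the likeness of SPRED2 to DUSP6 and SPRY4 rested largely on that library. DUSP1 had no value above 0.669 with any other member, that for DUSP4.

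Genome positions are from GENCODE release 29 on GRCh38. DUSP1 lies at chr5:172768090-172771195 and SPRY4 on the same chromosome at chr5:142310427-142326455, both on the minus strand. DUSP5 lies at chr10:110497838-110511544 and SPRED1 at chr15:38252326-38357249, both on the plus strand. DUSP6 lies at chr12:89347232-89353271, DUSP10 at chr1:221701424-221742176, SPRY2 at chr13:80335976-80340951 and SPRED2 at chr2:65310851-65432637, all on the minus strand. DUSP6 overlaps an antisense gene and SPRED2 a sense intronic gene, neither of which is a row of the table.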

How the data were processed

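Poly(A) RNA was sequenced in 10 libraries, 1 for each of 2 cell lines and 5 times. The deposited values were read as FPKM made by the authors; neither the labels nor the table header name the unit, which is an inference from values that step with transcript length and library size. The submitters' processing notes name HISAT, Bowtie2, RSEM and hg38, without versions. A value of 0.002 was read as 0 (19.6% of values). Read counts were not used; the step of 1 read at low values put the first library near 8.88 M fragments (quartiles 7.79 and 8.97), so no counting interval is given.

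Values were analysed as log2(FPKM + 1), a scale that understates folds of low genes, in limma 3.58.1 (R 4.3.3). Variances were moderated by empirical Bayes with a trend on the mean, over 12352 genes averaging 1 FPKM or more. Each later time was compared with 0 h with cell line as a block (4 residual degrees of freedom), the pairing coming from the shared cell line. The level difference between lines came from the same fit, and the trend difference was the product of line and rank of time (6 residual degrees of freedom). Tests were two-sided, with Benjamini-Hochberg adjustment over all tested genes and a threshold of 0.05. The p-values measure spread between these libraries, which are not stated to be separate cultures. Counts at 2-fold are sizes without a test. The scripts were tested on simulated data. All 9 members are named, with up to 4 genes of each list by mean change, and the 3 most alike genes per member; further list genes named (ERRFI1, NF1, EPHA2 and the markers) were chosen after their values were seen. The members and lists were chosen with earlier results of these data known. Alternatives were the pseudocount (0.1), the filter (none, or a mean of 5 FPKM), median and upper quartile scaling, time in hours, no replicate block, no mean-variance trend and leaving out each library. Correlations without the U87 48 h library, and the order of values under each scaling, were added after seeing the data. Promoter sequences are from RefSeq (GRCh38.p14) and positions from GENCODE release 29. Python 3.11.15 with numpy 2.4.6, pandas 2.3.3 and matplotlib 3.10.9 served for the rest.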

Additional observations from a re-analysis of the deposited data

Results flagged for a closer look

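SPRY2 and DUSP10 were singled out because all treated libraries of 1 line lay above its untreated library while all those of the other line lay below. Averaged over the 4 later times on the log2(FPKM + 1) scale, SPRY2 differed from 0 h by 0.78 in DBTRG-05MG and by -0.49 in U87. DUSP10 differed by -0.38 in DBTRG-05MG and by 1.07 in U87. Both orders also held after median centring and after upper quartile scaling. Each mean is set against the single 0 h library of its line. The difference in these means was not tested; the difference in trend, which was, had limma adjusted p-values of 0.106 for SPRY2 and 0.421 for DUSP10.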

How the results depend on the processing

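With 1 library per line and time, the fit of each time against 0 h estimates the mean change of the 2 lines, and their disagreement counts as spread. The SPRY4 level in U87 at 48 h, 1.91 FPKM, rests on fewer fragments than its other levels in that line, and its fragments were not counted. The alternatives left 0 of 9 members called at any time and for the trend. Without the replicate block (line), 0 members were called and the limma adjusted p of DUSP1 was 1.00 at every later time, with 96, 74, 56 and 375 genes at an unadjusted p under 0.05 at 6, 12, 24 and 48 h against 656, 552, 433 and 1512 with it. Over all alternatives the DUSP1 difference stayed positive, from 1.44 to 3.28 log2 units, with limma adjusted p-values from 0.0596 to 1.00; it was 1.67 at 6 h without the DBTRG-05MG 0 h library and 2.97 without that of U87.

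Members at least 2-fold higher became 2 in DBTRG-05MG at 6 and at 24 h with median centring, 2 in U87 at 6 h with a pseudocount of 0.1 and 2 in U87 at 24 h with median centring; members 2-fold lower in U87 at 24 h became 1 with a pseudocount of 0.1, and the 3 at 48 h became 4 with that pseudocount and 2 with either scaling. Members called between the lines numbered 7 or 8 when 1 library was left out, and 7 without the filter. The SPRED1 line difference was -0.10 with median centring and ran from -0.0072 to 0.34 with 1 library left out. The DUSP6 trend difference ran from -0.024 to 0.49 with 1 library left out, the lowest without U87 48 h. The causes were not tested. Of 544 alternative values for 32 fits not printed above, 47 changed sign, 41 of them on leaving out a library, and 0 were called (lowest adjusted p 0.266). Genes called over the whole table for the trend difference numbered 2, and 14 with time in hours, 7 with median centring, 5 without the filter, 3 without the mean-variance trend, 1 with a pseudocount of 0.1 or a mean of 5 FPKM, and 1 to 67 with 1 library left out, the highest without U87 0 h. Those called at 6, 12 and 24 h numbered 1 each, and 0 to 3 under the alternatives; 0 at 48 h became 2 without either 24 h library.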
